A study of Mus musculus with 6 samples.

Results

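The cytostatic programme of transforming growth factor β1 (TGF-β1) was examined through 10 genes: the 7 inhibitors of cyclin-dependent kinases (Cdkn1a, Cdkn1b, Cdkn1c, Cdkn2a, Cdkn2b, Cdkn2c and Cdkn2d), the transcription factor Myc, and the D cyclins Ccnd1 and Ccnd2. They were chosen by name, and every array probe whose transcript accession mapped to one of them was taken. All 10 were measured, by 16 probes, among 22910 named genes on the array and 14345 that passed the filter on dim probes. None of the 10 passed the test for a change with TGF-β1. Cdkn2b, encoding p15, was on average 1.22-fold higher in the treated cultures, with all 3 treated arrays above all 3 controls, and Ccnd1 was lower on all 3 treated arrays, but neither difference met the threshold after adjustment, and the size of both depended on how the arrays were scaled.

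In many epithelia TGF-β1 stops cell division in G1. Receptor-activated Smad proteins switch on the genes for p15 and p21, which block the kinases that cyclins D and E activate, and they silence Myc, which otherwise keeps p15 and p21 low. Blocked kinases leave Rb unphosphorylated, so that E2f factors cannot start the genes of S phase.

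The samples were airway epithelial organoids from the lungs of C57BL/6 mice, spread as a flat culture (2D-MAOs). All cultures grew for 7 days in 6-well plates. From day 3 both groups were kept in medium lacking noggin, a BMP antagonist, and A83-01, an inhibitor of TGF-β type I receptors, and 3 cultures received TGF-β1 while 3 control cultures did not. The labels and the array methods name no TGF-β1 concentration for these cultures. The 3 samples of a group were biological replicates, each read on 1 single-colour Agilent array, so the p-values below measure the spread between cultures. Values are log2 signals after quantile normalization, and a signal is a property of its probe, so levels are compared between arrays and not between genes. Cultures were measured whole, and fewer cells expressing a gene cannot be told apart from less RNA in each cell.

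Between 56.8% and 60.76% of spots were well above background on each array, and all 16 probes of the 10 genes were well above it on all 6 arrays. Of 8 genes listed as known TGF-β1 responders, 8 had groups that did not overlap, all higher with TGF-β1 (12.9% of all genes). At an adjusted p under 0.05 in limma 5 rose (2.04% of all genes, either direction). Among them Tgfbi rose by 4.58 (log2, SE 0.31, adjusted p = 0.00247) and Ltbp2 by 4.03 (SE 0.30, adjusted p = 0.00316), the latter well above background in 1 of 3 controls. The list was chosen with earlier results of these data known, so these counts are no independent check of the treatment. TGF-β1 replicate 3 stood apart from the other two treated arrays, at a distance of 61.1 and 62.3 from them (root of summed squared log2 differences over genes), against 32.3 between the other two and 54.4 to 60.9 from the controls. For the genes named from the cell cycle lists below, calls that change when it is left out are given both ways. Without it 6 of the 8 responders rose at an adjusted p under 0.05 in limma, against 15.4% of all genes called in either direction. Tgfbi then rose by 4.87 and Ltbp2 by 3.99. Of the markers of airway epithelium, 14 of 16 were well above background on all 6 arrays, Muc5ac and Muc5b being on none, and their summed signal ran from 395000 to 404000 in controls and from 379000 to 486000 with TGF-β1. The summed signal of 10 fibroblast markers was 585 to 658 in controls and 714 to 2720 with TGF-β1, with Col3a1, Pdgfrb, Lum, Postn and Tcf21 not well above background on any array. Col1a1 and Col1a2, the collagen I chains, were well above background on 0 control and 3 treated arrays. They passed the filter on dim probes only through the treated group, so no p-value is given for them. Without TGF-β1 replicate 3 neither was tested, and 1 of the 3 fibroblast markers then tested was called. This was Thy1, which rose by 3.57 (limma adjusted p = 0.00239), against 2.47 with overlapping groups when all arrays were in (limma adjusted p = 0.176). For 7 leukocyte markers the sum was 5600 to 6520 and 8060 to 10200, with Ptprc, Adgre1 and Lyz2 on no array. For 6 endothelial markers the sum was 87 to 109 and 105 to 117, with Cdh5, Kdr, Tek and Emcn on none, and 0 genes of these last lists were called. The part of these sums in the results below was not tested.

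Cdkn2b encodes p15, the Ink4-family inhibitor of Cdk4 and Cdk6 first known as a TGF-β target in keratinocytes. It lies at chr4:89306289-89311032 (GRCm38.p6), 11670 bp from Cdkn2a. Because it had the only unadjusted p under 0.05 among the 10 genes, the 250 bases upstream of its RefSeq start are shown, beside those of 2 further inhibitors described below that differ in motif content. Capitals mark GC boxes, the Sp1-type element GGGCGG or its reverse complement CCGCCC, and Smad elements, CAGAC or its complement GTCTG. All are written 5′ to 3′ on the strand of the gene.
Cdkn2b, chr4:89311033-89311282, minus strand: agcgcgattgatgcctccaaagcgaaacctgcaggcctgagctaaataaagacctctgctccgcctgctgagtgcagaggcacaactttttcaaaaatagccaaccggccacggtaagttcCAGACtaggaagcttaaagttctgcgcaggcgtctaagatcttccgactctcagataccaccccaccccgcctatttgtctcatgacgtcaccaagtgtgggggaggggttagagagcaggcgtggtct
Cdkn2c, 1 of 2 listed starts, chr4:109666757-109667006, minus strand: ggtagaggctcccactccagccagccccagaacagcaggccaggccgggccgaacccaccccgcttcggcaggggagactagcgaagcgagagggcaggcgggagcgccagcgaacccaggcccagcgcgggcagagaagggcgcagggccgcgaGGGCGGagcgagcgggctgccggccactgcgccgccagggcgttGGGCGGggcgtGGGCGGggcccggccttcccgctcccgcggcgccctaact
Cdkn1a, second listed start, chr17:29093519-29093768, plus strand: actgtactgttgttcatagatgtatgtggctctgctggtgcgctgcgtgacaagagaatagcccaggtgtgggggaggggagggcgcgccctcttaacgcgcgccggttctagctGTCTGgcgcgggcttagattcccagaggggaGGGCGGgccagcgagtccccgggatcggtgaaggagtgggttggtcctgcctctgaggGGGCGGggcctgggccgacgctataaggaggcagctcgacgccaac

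The Cdkn2b window holds 1 Smad element and 0 GC boxes, this Cdkn2c window 3 GC boxes and 0 Smad elements, and this Cdkn1a window 2 GC boxes and 1 Smad element. The window of the other Cdkn2c start, chr4:109665373-109665622, holds 0 GC boxes and 1 Smad element, and that of the other Cdkn1a start, chr17:29090729-29090978, likewise 0 and 1. RefSeq gave 9 such windows for 6 of the 10 genes, of which 5 hold a GC box and 5 a Smad element. Among all 32851 mouse windows of this length, 32.7% hold a GC box and 42.2% a Smad element. A match to letters is a description of the window and says nothing of what binds there.

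The log2 signal of Cdkn2b was 14.45 on each of control replicates 1, 2 and 3, and 14.75, 14.83 and 14.64 on TGF-β1 replicates 1, 2 and 3. All treated arrays were thus above all controls, and the controls were nearly equal. The difference was 0.29 (SE 0.10, 95% interval 0.05 to 0.53, or 1.03-fold to 1.44-fold), with an unadjusted limma p of 0.025 and an adjusted p of 0.176 over all genes. The exact two-sided permutation test gave p = 0.1, the smallest that 3 arrays against 3 allow. A second Cdkn2b probe read 14.42, 14.41 and 14.34 in controls and 14.67, 14.73 and 14.55 with TGF-β1. Its groups did not overlap either, and its difference was 0.27. The difference of Cdkn2b depended on scaling: with each array scaled to its 75th percentile it was 0.03 (95% interval -0.24 to 0.31, limma adjusted p = 0.88), and the groups overlapped. That scaling moved the median of the 1434 genes with the brightest probes from 0.03 to -0.20, and the probes of Cdkn2b, Ccnd1, Ccnd2 and Cdkn1a are among these.

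**Figure D1:**
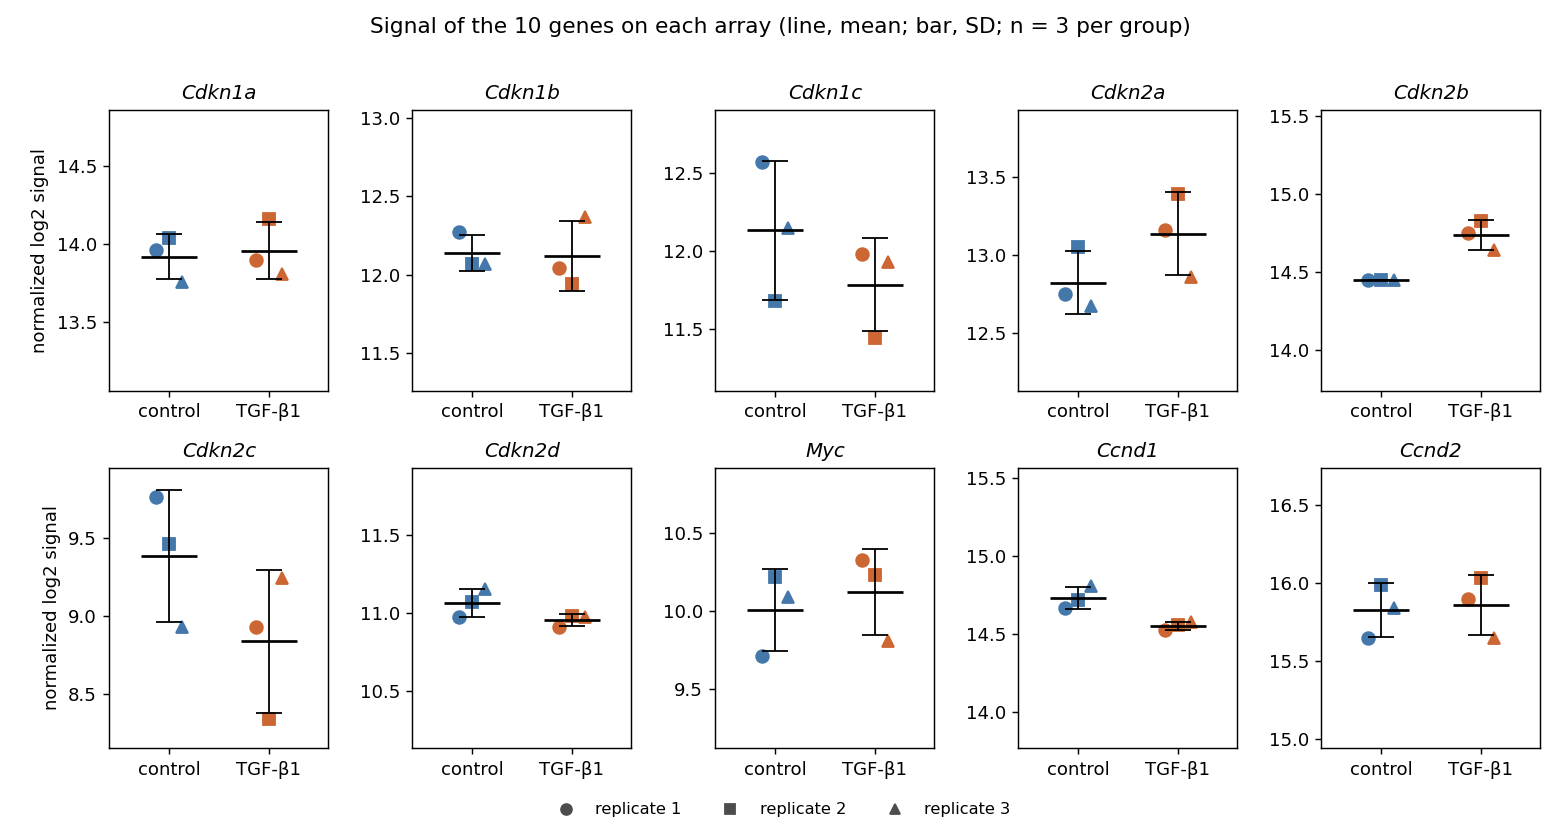
Quantile-normalized log2 signal of each of the 10 genes on the 6 arrays, control in blue and TGF-β1 in orange, with the symbol giving the replicate number, a line at the group mean and bars of 1 SD (n = 3), each panel spanning the same log2 range. The groups are apart for Cdkn2b, where TGF-β1 is higher, and for Ccnd1, where it is lower, and overlap for the other 8 genes.

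Of the 10 genes, 5 were higher and 5 lower with TGF-β1, and 0 passed an adjusted p of 0.05 in limma, a rule met by 2.04% of all genes tested. At an unadjusted p under 0.05, 1 of the 10 passed, Cdkn2b, against 22.2% of all genes. The methods' t-test after Benjamini-Hochberg adjustment also called 0. Groups did not overlap for 1 gene in the higher direction, against 12.9% of all genes, and for 1 in the lower direction, against 13.5%. The median log2 difference was 0.01 over the 10 and -0.03 over all genes, and the median size of the difference was 0.14 over the 10 and 0.21 over all genes. For 9 of the 10 the 95% interval lay within a 2-fold change in either direction, Cdkn2c being the exception, and for 7 it lay within 1.5-fold. The data thus bound the size of most differences, while a missed threshold does not show that the groups were equal.

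The Cip/Kip inhibitors bind cyclin-Cdk2 complexes. Cdkn1a encodes p21, which p53 and TGF-β both can induce, and lies at chr17:29090979-29100722. Its log2 signal was 13.96, 14.04 and 13.76 in control replicates 1 to 3 and 13.90, 14.16 and 13.81 in TGF-β1 replicates 1 to 3. The groups overlapped, and the difference was 0.04 (SE 0.14, 95% interval -0.29 to 0.37, limma adjusted p = 0.885). The interval runs from 0.817-fold to 1.29-fold of control. The sign was not settled, since it was -0.17 with 75th percentile scaling, and a second, dimmer probe of another Cdkn1a transcript gave -0.19.

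Cdkn1b encodes p27, whose amount is set largely by protein breakdown, and lies at chr6:134920401-134925525. It read 12.27, 12.07 and 12.07 in controls and 12.04, 11.94 and 12.37 with TGF-β1, replicate 3 being the highest of the 6 arrays. The difference was -0.02 (SE 0.14, 95% interval -0.36 to 0.33, limma adjusted p = 0.948), the closest to 0 of the 10, and became -0.15 without TGF-β1 replicate 3.

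Cdkn1c encodes p57, an imprinted inhibitor of the same family, at chr7:143458339-143461059. Its signal was 12.57, 11.68 and 12.15 in controls and 11.98, 11.44 and 11.93 with TGF-β1. The control arrays alone spanned 0.88, more than the difference of -0.35 between groups (SE 0.25, 95% interval -0.95 to 0.25, limma adjusted p = 0.432).

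The Ink4 proteins bind Cdk4 and Cdk6 and keep D cyclins from them. Beside Cdkn2b on chromosome 4 lies Cdkn2a (chr4:89274473-89294619), which encodes p16Ink4a and, in another reading frame, p19Arf, a stabiliser of p53. Both Cdkn2a probes carry the accession of 1 transcript, and the products were not measured separately. The brighter probe read 12.75, 13.05 and 12.67 in controls and 13.16, 13.39 and 12.86 with TGF-β1. TGF-β1 replicates 1 and 2 were above every control, and replicate 3 was below control replicate 2. The difference was 0.31 (SE 0.17, 95% interval -0.10 to 0.73, limma adjusted p = 0.323), the highest of the 10. It was 0.45 without TGF-β1 replicate 3, again past no threshold (limma adjusted p = 0.096). The second, dimmer probe read 8.73, 8.50 and 8.50 in controls and 8.37, 8.49 and 8.65 with TGF-β1, a difference of -0.07, so the probes disagreed in sign.

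Cdkn2c encodes p18 and lies at chr4:109660876-109666756. It read 9.76, 9.46 and 8.93 in controls and 8.93, 8.34 and 9.24 with TGF-β1. TGF-β1 replicate 3 was above control replicate 3, whereas TGF-β1 replicate 1 read the same to 2 decimals as the lowest control and replicate 2 was below every control. The difference was -0.54 (SE 0.29, 95% interval -1.23 to 0.15, limma adjusted p = 0.307), the lowest of the 10 and the least precise. It was -0.75 without TGF-β1 replicate 3 (limma adjusted p = 0.124). When limma weighted arrays by how closely they followed their group means, which gave TGF-β1 replicate 3 a weight of 0.297 and replicate 1 a weight of 2.27, the difference was -0.83 (adjusted p = 0.0345). On slide row 1 alone, which leaves out both replicate 3 arrays, it was -0.97 (limma adjusted p = 0.0379).

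Cdkn2d encodes p19Ink4d, at chr9:21288459-21291421. Its signal was 10.97, 11.07 and 11.15 in controls and 10.91, 10.98 and 10.97 with TGF-β1. The groups met at their edge, and the difference was -0.11 (SE 0.10, 95% interval -0.35 to 0.13, limma adjusted p = 0.541). With 75th percentile scaling it was -0.21, and all treated arrays were then below all controls (limma adjusted p = 0.299).

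Down-weighting or leaving out replicate 3 raised the number of calls in the whole table. With array weights 2 of the 10 were called, Cdkn2b (0.32, limma adjusted p = 0.023) and Cdkn2c, against 34.7% of all genes. Without TGF-β1 replicate 3, 0 of the 10 were called against 15.4% of all genes, the lowest adjusted p in limma being 0.071 for Cdkn2b. On slide row 1 alone 1 of the 10 was called, Cdkn2c, against 28.5% of all genes. The methods' t-test, unadjusted, passed 2 of the 10, Cdkn2b and Ccnd1, against 17.1% of all genes.

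Myc, at chr15:61985341-61990361, encodes a driver of cell growth that TGF-β represses in many epithelial cells. It read 9.71, 10.22 and 10.09 in controls and 10.33, 10.23 and 9.81 with TGF-β1. The highest signal was in TGF-β1 replicate 1 and the lowest in control replicate 1, and the groups overlapped. The difference was 0.11 (SE 0.19, 95% interval -0.35 to 0.57, limma adjusted p = 0.754), and -0.04 without control replicate 1. A second Myc probe, whose spots were as little as 2.77 times the background, gave -0.09.

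Ccnd1 encodes cyclin D1, the partner of Cdk4 and Cdk6 that growth factors induce, and lies at chr7:144929931-144939831. It read 14.67, 14.72 and 14.81 in controls and 14.53, 14.56 and 14.58 with TGF-β1, so all treated arrays were below all controls. The difference was -0.18 (SE 0.10, 95% interval -0.41 to 0.05, limma adjusted p = 0.316), and the exact permutation test gave the smallest possible p, 0.1. With 75th percentile scaling the difference was -0.42 (95% interval -0.71 to -0.13, limma adjusted p = 0.13). The lower direction held under both scalings, whereas the size differed by more than its SE.

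Ccnd2 encodes cyclin D2, at chr6:127125162-127152188. Its brightest probe read 15.65, 15.99 and 15.84 in controls and 15.90, 16.03 and 15.65 with TGF-β1. The groups covered nearly the same range, and the difference was 0.03 (SE 0.15, 95% interval -0.32 to 0.38, limma adjusted p = 0.913). The other 2 probes gave -0.16 and 0.04, and 75th percentile scaling gave -0.24 for the brightest probe.

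**Figure D2:**
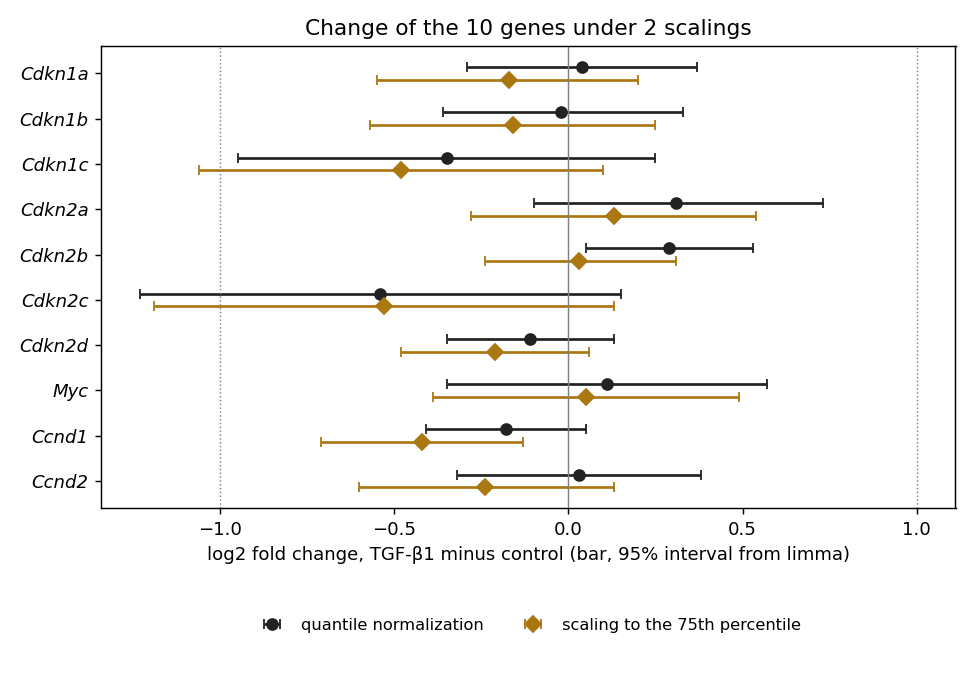
Log2 fold change of each of the 10 genes, TGF-β1 minus control, with its 95% interval from limma, after quantile normalization (black circles) and after scaling each array to its 75th percentile (brown diamonds), with dotted lines at a 2-fold change. Scaling to the 75th percentile moves Cdkn2b from 0.29 to 0.03 and Ccnd1 from -0.18 to -0.42, and turns the sign of Cdkn1a and Ccnd2.

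The other genes around these inhibitors were taken from 8 lists that together name 148 genes, of which 144 were tested. Of the 144, 0 passed an adjusted p of 0.05 in limma, 24 had an unadjusted p under 0.05 (22.2% of all genes), and the methods' t-test called 22 before adjustment (17.1% of all genes) and 0 after it. Groups did not overlap for 9 in the higher direction (12.9% of all genes) and 20 in the lower (13.5% of all genes), shares that also stand behind the counts of each list below. The median difference was -0.05. Without TGF-β1 replicate 3, 8 of the 144 rose and 8 fell, 16 in all, against 15.4% of all genes. Of the 8 responders to TGF-β1 named above, 5 had been called with all arrays in. That list and the 8 lists here were chosen with earlier results of these data known.

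Among cyclins and their kinases, 16 of 17 were tested, with a median difference of -0.10, and groups did not overlap for 1 higher and 5 lower. Ccnd3, encoding the third D cyclin, read 13.23, 13.35 and 13.21 in controls and 12.74, 12.78 and 12.98 with TGF-β1, a difference of -0.44 (limma adjusted p = 0.112). Cdc25b, a phosphatase that activates Cdk1, differed by -0.45 (limma adjusted p = 0.154), and its treated arrays were likewise all lower. Ccne1, encoding cyclin E1, differed by 0.58 with overlapping groups (limma adjusted p = 0.203). Without TGF-β1 replicate 3, Ccnd3 fell by 0.51 (limma adjusted p = 0.0323) and Ccne1 rose by 0.80 (limma adjusted p = 0.0294).

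All 18 genes of the Rb and E2f list were tested, with a median of -0.15, 0 higher and 3 lower without overlap. E2f2, an activator of S-phase genes, read 5.97, 5.89 and 6.73 in controls and 5.09, 4.23 and 5.06 with TGF-β1. This difference of -1.41 was the lowest in any of the 8 lists but missed the threshold (limma adjusted p = 0.0798), and it was -1.54 without TGF-β1 replicate 3 (adjusted p = 0.0365). E2f5, a repressor that works with Rb relatives, differed by -0.38 (limma adjusted p = 0.17), and fell by 0.49 without TGF-β1 replicate 3 (limma adjusted p = 0.0349). E2f8, a repressor made in S phase, read 7.07 and 6.56 in TGF-β1 replicates 1 and 2, above controls of 4.92 to 5.95, and 3.68 in replicate 3, so its mean difference of 0.39 lay near none of the treated arrays. Without replicate 3 E2f8 rose by 1.43 (limma adjusted p = 0.0364).

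Of the Myc network, 11 of 12 genes were tested, with a median of 0.09. Mycn, the N-Myc paralogue of Myc, read 3.88, 4.94 and 4.94 in controls and 7.51, 7.29 and 5.41 with TGF-β1, and was well above background in 2 of the 3 controls. Its difference of 2.15 was the highest in the 8 lists (limma adjusted p = 0.121), and it rose by 2.81 without TGF-β1 replicate 3 (limma adjusted p = 0.00885). Mxd1 and Mxd4 encode antagonists that compete with Myc for Max. They differed by 0.58 (limma adjusted p = 0.306) and -0.61 (limma adjusted p = 0.132), in opposite directions. With TGF-β1 replicate 3 left out, Mxd1 rose by 0.96 (limma adjusted p = 0.0129) and Mxd4 differed by -0.67 (limma adjusted p = 0.0629).

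The 22 listed targets of Myc, mostly of ribosome biogenesis, had a median of -0.14, with 0 higher and 4 lower without overlap. Srm, which makes spermidine, differed by -0.32, Gnl3, a nucleolar GTPase, by -0.32 and Rrs1, a ribosome assembly factor, by -0.31, with limma adjusted p of 0.25, 0.186 and 0.237. The median was -0.29 with 75th percentile scaling. The 20 genes of p53 and its targets, which include other genes that p53 switches on beside Cdkn1a, had a median of 0.16, which became 0.01 with 75th percentile scaling and 0.32 without TGF-β1 replicate 3. Of the 20, 0 were called with all arrays (2.04% of all genes), 3 rose without that array (15.4% of all genes) and 6 rose on slide row 1 alone (28.5% of all genes). These shares count calls in either direction. Perp, a p53 target that also builds desmosomes, read 15.80, 16.04 and 16.48 in controls and 16.94, 16.95 and 16.75 with TGF-β1, a difference of 0.77 (limma adjusted p = 0.0935). Plk2, a stress-induced kinase, differed by 0.63 (limma adjusted p = 0.366) and Gtse1, a p53 regulator, by 0.52 (limma adjusted p = 0.441), both with overlapping groups. Perp rose by 0.84 without TGF-β1 replicate 3 (limma adjusted p = 0.0439) and Plk2 by 1.08 (limma adjusted p = 0.0337), while Gtse1 differed by 0.87 (limma adjusted p = 0.109).

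The 11 genes that govern breakdown of p27 and of cyclin E had a median of 0.11, and -0.03 with 75th percentile scaling. Fbxw7, which marks cyclin E and Myc for destruction, differed by 0.36 with all treated arrays higher (limma adjusted p = 0.186), and rose by 0.47 without TGF-β1 replicate 3 (limma adjusted p = 0.0426). Cul1, the scaffold of its ligase, differed by -0.24 with all treated arrays lower (limma adjusted p = 0.239), and Fbxo5, an inhibitor of the anaphase ligase, by -0.35 with overlapping groups. Among the 21 tested of 23 upstream factors, the median was -0.08. Smad7, an inhibitory Smad that TGF-β induces, differed by 0.82 (limma adjusted p = 0.0747), Id2, an inhibitor of differentiation factors, by -0.73 (limma adjusted p = 0.0997), and Foxo3, a partner of Smads at Cdkn1a, by -0.41 (limma adjusted p = 0.232). Id2 fell by 0.88 without TGF-β1 replicate 3 (limma adjusted p = 0.0219), and the other 2 were again not called.

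**Figure D3:**
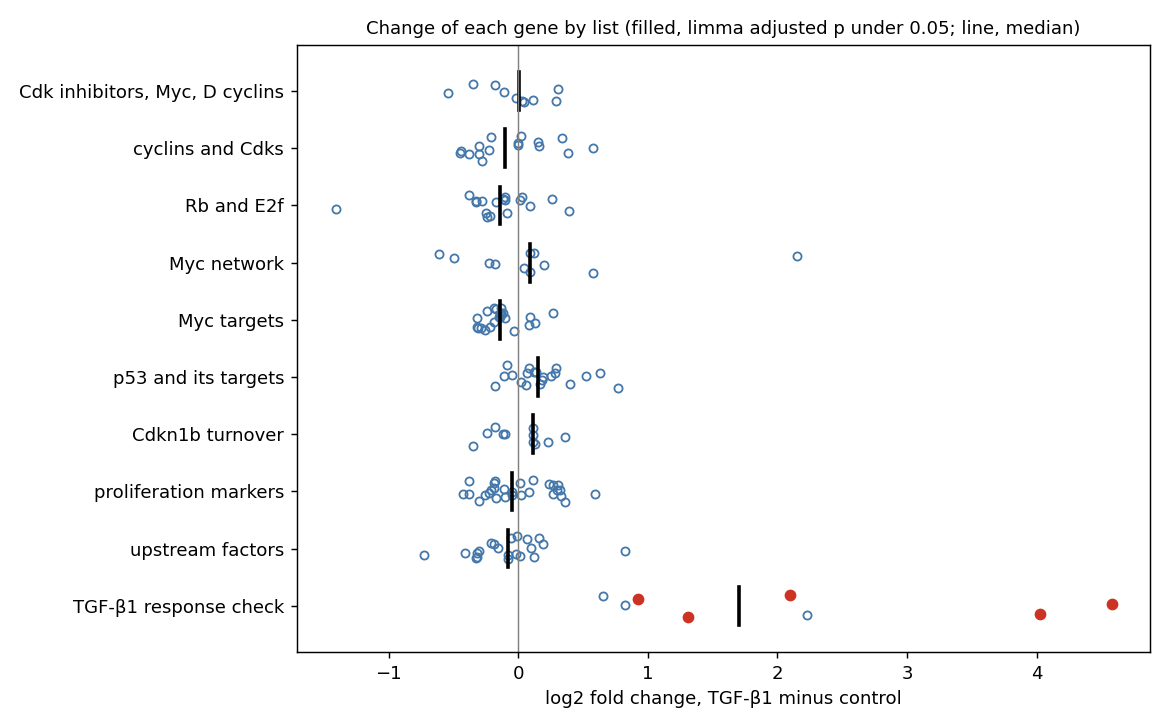
Log2 fold change, TGF-β1 minus control, of each tested gene (1 point each) in the 10 genes, the 8 surrounding lists and the list of known TGF-β1 responders, with filled points for a limma adjusted p under 0.05 and a line at each median. Filled points occur only among the responders, 5 of 8, while Mycn at 2.15 and E2f2 at -1.41 are the most distant points of the cell cycle lists.

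Proliferation was read from 28 genes of DNA replication and mitosis, which dividing cells express. Their median difference was -0.05, with 3 higher and 2 lower without overlap and 0 called. Without TGF-β1 replicate 3 the median was 0.33, with 0 called higher and 2 called lower (15.4% of all genes, either direction). On slide row 1 alone 10 rose and 2 fell (28.5% of all genes, either direction). The median with all arrays in covered treated arrays that differed among themselves. As each gene's deviation from its control mean, the median over the 28 genes was -0.06, -0.10 and 0.20 in control replicates 1 to 3 and 0.46, 0.21 and -0.57 in TGF-β1 replicates 1 to 3. TGF-β1 replicate 3 was thus the lowest of all arrays and TGF-β1 replicate 1 the highest. Mki67, encoding Ki-67, read 8.62, 8.27 and 9.53 in controls and 10.72, 9.73 and 7.74 with TGF-β1, and its groups overlapped (limma adjusted p = 0.649). Pcna, the sliding clamp of DNA replication, read 13.87, 13.91 and 13.92 in controls and 13.41, 13.29 and 13.85 with TGF-β1, a difference of -0.38 (limma adjusted p = 0.222). Mcm2, of the replicative helicase, differed by -0.43 (limma adjusted p = 0.191). For both, TGF-β1 replicates 1 and 2 were well below every control and replicate 3 was closer to them, the opposite order to Mki67. Without TGF-β1 replicate 3, Pcna fell by 0.55 (limma adjusted p = 0.025) and Mcm2 fell by 0.58 (limma adjusted p = 0.0342), while Mki67 differed by 1.41 (limma adjusted p = 0.0765).

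**Figure D4:**
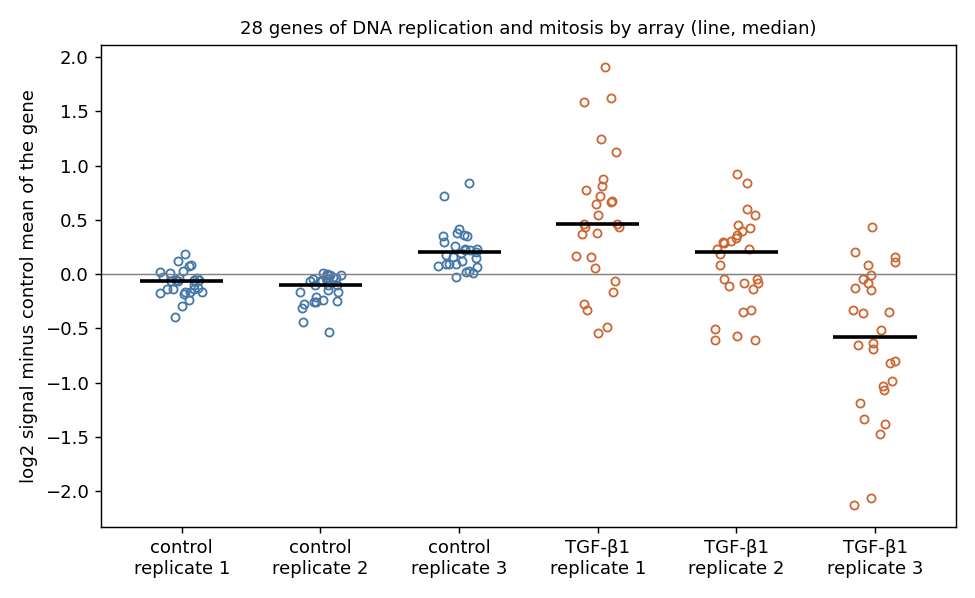
Deviation of each of 28 genes of DNA replication and mitosis (1 point each) from its mean over the controls, in log2 signal, on each of the 6 arrays, with a line at the median. Medians are -0.06, -0.10 and 0.20 on the control arrays and 0.46, 0.21 and -0.57 on the TGF-β1 arrays, so the 3 treated arrays lie on both sides of the controls.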

How the data were processed

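The authors hybridised Cy3-labelled cRNA to Agilent SurePrint mouse arrays and deposited the scanner output, with spot intensity extracted by Agilent Feature Extraction 11.0.1.1 (submitters' processing notes). The deposited processed signal is a linear intensity after background subtraction, with marks for spots well above background. From it, log2 signals were normalized by quantiles in R 4.3.3. Control spots and outlier spots were left out, a probe was kept where at least 3 of the 6 arrays had it well above background, and a gene was represented by its brightest probe. The 3 TGF-β1 and 3 control arrays were compared with limma 3.58.1, with Benjamini-Hochberg adjustment over 14345 genes and an alpha of 0.05. The limma fit was also run on simulated data with independent noise of equal spread on all arrays. These data held no deviating array and only changes larger than those of the 10 genes, so they say nothing of such cases. Exact two-sided permutation tests used scipy 1.17.1. The 10 genes and the lists were chosen with earlier results of these data known. The text names all 10 genes, and of each cell cycle list and of the responders those called or, with none or over 3 called, the 3 with the largest log2 fold change, with the 3 genes correlating best with Cdkn2b, Cdkn1a and Myc; 1 gene under this rule is not reported here. Alternatives were 75th percentile scaling, background correction by normexp (offset 50), the filter dropped or widened to all 6 arrays, averaged probes, a trended robust prior, array weights, the replicate block, the slide row as a block, the methods' t-test, and leaving out each array. The arrays shared 1 slide and 1 scan time. Slide row 2 held both replicate 3 arrays, and the fit on slide row 1 alone was chosen after seeing the data. Same-numbered arrays of the 2 groups did not deviate together (correlations -0.00769, 0.333 and -0.0469), so the numbers were not taken as pairs. Only 6 arrays limit the precision. Gene positions and upstream windows are from RefSeq on GRCm38.p6. Probe positions, annotated on an older build, were not used here.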

Additional observations from a re-analysis of the deposited data

How the results depend on the processing

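Cdkn1c, Cdkn2a, Cdkn2b, Cdkn2c, Cdkn2d and Ccnd1 kept their direction in each of 18 alternatives. Cdkn1a turned to -0.17 with 75th percentile scaling and -0.08 with the mean of its probes, and Ccnd2 to -0.24, to -0.03 and, with normexp background, to -0.002. Leaving out each array in turn gave Cdkn1a -0.06 to 0.11, Cdkn1b -0.15 to 0.07, Myc -0.04 to 0.26, Ccnd2 -0.06 to 0.14, Cdkn2b 0.25 to 0.34 and Cdkn2c -0.77 to -0.30. The signs that turned were those of Cdkn1b (0.05), Myc (-0.04) and Ccnd2 (-0.06) without control replicate 1, of Cdkn1a (-0.04) when control replicate 3 was dropped, of Cdkn1b (0.02) without TGF-β1 replicate 1, and of Cdkn1a (-0.06), Cdkn1b (0.07) and Ccnd2 (-0.05) without TGF-β1 replicate 2. With array weights 2 of the 10 genes passed, Cdkn2b (0.32) and Cdkn2c (-0.83). The methods' t-test, unadjusted, passed 2, Cdkn2b (0.29) and Ccnd1 (-0.18), and slide row 1 alone passed 1, Cdkn2c (-0.97). In the 8 surrounding lists, 0 of 144 were called with all arrays (2.04% of all genes). Array weights gave 38 (34.7% of all genes), the unadjusted methods' t-test 22 (17.1%) and slide row 1 alone 36 of 143 (28.5%). With an array left out 0 to 16 were called, 16 without TGF-β1 replicate 3 (15.4%) and 2 of 143 without control replicate 3. Normexp background gave 2, the trended robust prior 3 and the slide row as a block 2. The causes were not tested. With the replicate block 0 of the 10 genes were called, and Cdkn2b was again 0.29 (limma adjusted p = 0.233). With 75th percentile scaling 38.3% of all genes were higher with TGF-β1, against 45.8% after quantile normalization.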

Other observations

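Over the 6 arrays, the genes whose signal followed Cdkn2b most closely, among 13516 genes well above background on all of them, were Sbk1 (r = 0.9979), Myadm (r = 0.9954) and C1qtnf1 (r = 0.9945). C1qtnf1, a secreted C1q-related protein, read 5.66, 5.67 and 5.73 in controls and 8.13, 8.28 and 7.14 with TGF-β1. For Cdkn1a they were Jaml (r = 0.9874), Wdr83 (r = 0.9757) and Rfc2 (r = 0.9746), and for Myc Ccdc116 (r = 0.9954), Bard1 (r = 0.9724) and Map2k4 (r = 0.9704). These Pearson correlations are descriptions over 6 arrays of 2 groups and the highest among all genes ranked. Foxj1, the regulator of motile cilia, was the 1 airway epithelial marker of 14 tested that rose with all arrays in, by 1.47 (limma adjusted p = 0.00238). It read 7.56, 7.55 and 7.64 in controls and 9.02, 9.09 and 9.05 with TGF-β1, so TGF-β1 replicate 3 did not stand apart for this gene. Without that array 4 of the 14 rose (15.4% of all genes, either direction). Beside Foxj1 these were Epcam by 1.03 (limma adjusted p = 0.0174), Krt5 by 1.90 (limma adjusted p = 0.0189) and Scgb3a2 by 1.26 (limma adjusted p = 0.0318). On slide row 1 alone 6 airway markers rose and 3 fell (28.5% of all genes, either direction).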
